A study of Mus musculus with 5 samples.

Results

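Within 1 library of Vγ6+ γδ T cells sorted from the thymus of C57BL/6 mice aged 8 weeks, cells that carried transcripts of Gzma were compared with cells that carried transcripts of Cd163l1. Cells were selected on their measured counts of these 2 genes: Gzma-positive cells had at least 1 unique molecular identifier (UMI, a tag that marks 1 captured transcript) of Gzma and 0 of Cd163l1, and Cd163l1-positive cells had at least 1 UMI of Cd163l1 and 0 of Gzma. Among the 2517 thymus barcodes with at least 200 genes and at most 10% mitochondrial UMIs, 618 were Gzma-positive and 564 Cd163l1-positive, 1182 in all, out of 7846 kept cells in the 5 libraries of the series. A further 317 thymus cells carried both transcripts and 1018 carried neither. All 4 classes came from the same mice, the same sort and the same droplet run, and the number of animals is not given in the sources used here. Before sorting, thymocytes bearing CD4 or CD8 had been lysed with antibodies against CD4 and CD8β and complement, so the cells had been selected against both proteins. The other libraries held Vγ6+ cells of peripheral lymph node (pLN) and ear skin and Vγ4+ cells of ear skin from mice of the same strain and age. A pooled Vγ6+ library mixed lymph node cells of TcrdCreER mice, thymus cells of ACT-FLPe mice and ear skin cells of TcrdH2BeGFP mice, 8 to 10 weeks old, without a record of which cell came from which tissue.

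Vγ6+ γδ T cells are made in the fetal thymus and settle in skin, mucosa and other tissues, where many are poised to secrete IL-17 and IL-22 on stimulation by IL-1 and IL-23. The transcription factor c-Maf takes part in directing this programme. Cd163l1 encodes a scavenger receptor-like membrane protein typical of IL-17-type γδ T cells, and Gzma encodes granzyme A, a serine protease stored in cytotoxic granules. Immature γδ thymocytes carry CD24 on their surface and lose it as they mature.

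The 2 transcripts that set the classes are read from promoters of different chromosomes. The 250 bases before each RefSeq transcription start are shown (GRCm38.p6), since every value below is sorted by these genes, with E-boxes (CANNTG, the motif of E proteins such as the product of Tcf12) in capitals. The Gzma window lies on the minus strand at chr13:113100982-113101231 and the Cd163l1 window on the plus strand at chr7:140218017-140218266.
Gzma: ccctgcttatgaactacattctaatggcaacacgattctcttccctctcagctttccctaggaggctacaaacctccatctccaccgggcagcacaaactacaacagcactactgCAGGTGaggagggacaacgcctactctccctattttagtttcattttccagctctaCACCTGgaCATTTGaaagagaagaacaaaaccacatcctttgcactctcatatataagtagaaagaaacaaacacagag
Cd163l1: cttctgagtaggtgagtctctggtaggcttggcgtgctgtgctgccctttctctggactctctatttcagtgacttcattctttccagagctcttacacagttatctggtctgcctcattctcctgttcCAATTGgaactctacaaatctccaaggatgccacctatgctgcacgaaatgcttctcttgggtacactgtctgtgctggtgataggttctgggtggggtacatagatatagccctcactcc
The Gzma window held 3 E-boxes and the Cd163l1 window 1. Of 32851 mouse promoter windows in the same table, 66.2% held an E-box. Neither window held AGGTGTGA, a T-box site, on either strand, and 1.12% of all windows held it. A match is a description of the letters and not a measured binding site.

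The classes were read from summed UMIs: 1939855 in Gzma-positive cells, 1308753 in Cd163l1-positive cells and 2246142 in cells with neither transcript, each class at its own depth. The median cell held 2553.5 UMIs in the Gzma-positive, 2112 in the Cd163l1-positive, 1871.5 in the neither and 2644 in the both class. Levels are in CPM (UMIs of the gene per 1000000 UMIs summed over the class), and ratios are Gzma-positive over Cd163l1-positive cells. Each ratio carries in parentheses an exact conditional binomial 95% interval. It covers counting error only, because there was 1 library and no difference could be set against a spread between animals, and no test was made. A gene was called higher or lower in Gzma-positive cells when the ratio reached 2-fold, the interval excluded 1 and the class with more had at least 20 CPM. The sums alone do not separate more cells with a gene from more transcripts per cell. Shares of cells with a UMI of the gene, which also depend on depth, were counted as well. Il23r was found in 4.21% of Gzma-positive and 27.1% of Cd163l1-positive cells, and Lck in 64.4% and 31.0%.

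Of 5483 genes with at least 20 CPM in either class, 314 were called higher in Gzma-positive cells (5.73%) and 359 lower (6.55%), 12.3% in all. The median log2 ratio over all 5483 genes was 0.09. Of 22 gene lists, those of immature thymocytes and of the cell cycle had the highest medians. The IL-17 programme and the genes of tissue-settled effector cells had the lowest. Close to the 2-fold limit, Tspan13 was called at a ratio of 2.01 (1.75 to 2.31), with 429 CPM in Gzma-positive and 214 CPM in Cd163l1-positive cells, and Gstt2 was just short of 2-fold at 2.00 (1.28 to 3.22), with 41.2 and 20.6 CPM in the same order. Ribosomal protein genes took 19.6% of the UMIs of Gzma-positive cells and 18.5% of those of Cd163l1-positive cells, and mitochondrial genes 4.77% and 4.60%.

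**Figure D1:**
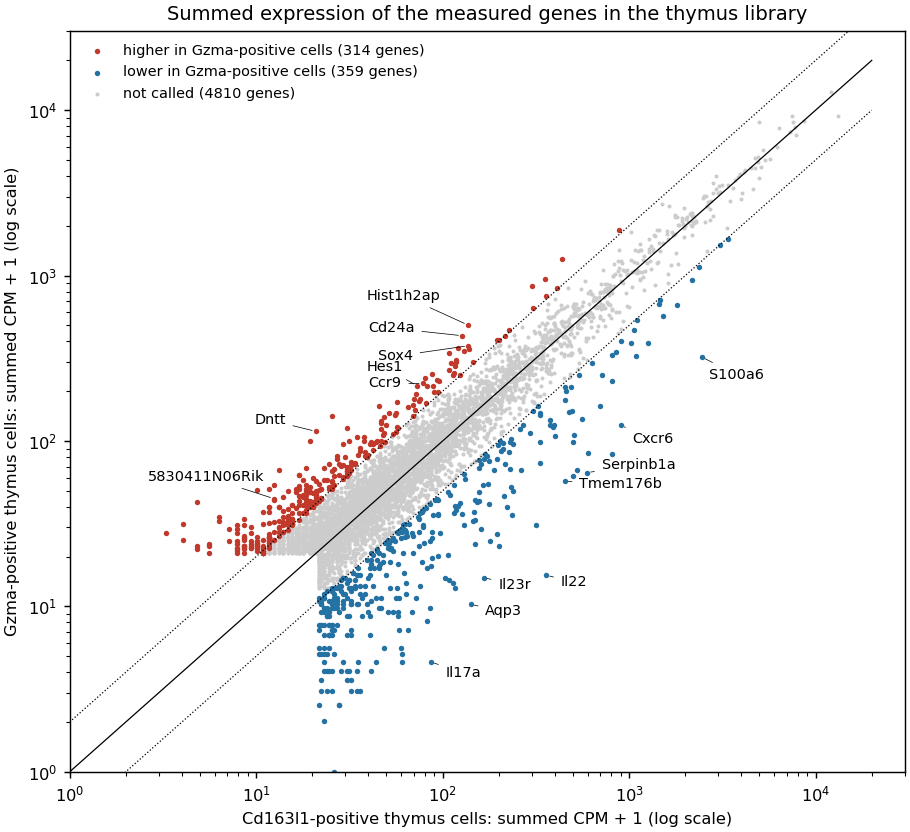
Summed CPM + 1 in Gzma-positive thymus cells (vertical) against Cd163l1-positive thymus cells (horizontal), both on log scales, 1 point per gene for the 5483 measured genes. The solid line marks equal expression and the dotted lines the 2-fold limits; 314 genes (red) were called higher and 359 (blue) lower in Gzma-positive cells, and S100a6, Cxcr6 and Il22 lie far below the line.

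Among the 15 genes ranked as most clearly higher in Gzma-positive cells, ratios ran up to 3.72, and among the 15 most clearly lower ones the fold ran from 7.16 to 15.2. The departures were therefore larger on the lower side. The immature thymocyte list showed 13 of 21 measured members higher and 0 lower, with a median log2 ratio of 1.37. Dntt, which encodes the terminal transferase that adds bases at receptor gene junctions, stood at 113 CPM in Gzma-positive and 19.9 CPM in Cd163l1-positive cells, a ratio of 5.71 (3.79 to 8.93). Cd24a, the gene of the surface antigen of immature thymocytes, stood at 432 and 126 CPM in the same order (ratio 3.43, 2.90 to 4.07). Plac8 had 870 CPM in Gzma-positive and 299 CPM in Cd163l1-positive cells (2.91, 2.61 to 3.26), and the HMG-box factor gene Tox2 had 61.3 and 16.0 CPM (3.82, 2.39 to 6.4).

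Of the transcription factor genes on this list, some were called and some were not. Sox4 was at 375 CPM in Gzma-positive against 136 CPM in Cd163l1-positive cells, a ratio of 2.76 (2.34 to 3.27). Myb stood at 172 and 55.8 CPM (3.08, 2.38 to 4.02), and Id3, an inhibitor of E proteins, at 142 and 54.3 CPM (2.61, 2.01 to 3.44). Hes1, a target gene of Notch signalling that is not on the list, had 215 CPM in Gzma-positive and 71.8 CPM in Cd163l1-positive cells (2.99, 2.39 to 3.78). Not called were Tox at 170 and 115 CPM, Tcf12 at 97.9 and 51.2 CPM (1.91, 1.44 to 2.57) and Bcl11b, a factor of T lineage commitment, at 162 and 204 CPM. Itm2a, a membrane protein gene switched on in selected thymocytes, was at 347 and 130 CPM (2.67, 2.26 to 3.18).

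Genes of T cells that circulate between blood and lymphoid organs showed 4 of 12 measured members higher and 0 lower (median log2 ratio 0.78). Tcf7, a factor gene of naive and early T cells, stood at 281 CPM in Gzma-positive and 115 CPM in Cd163l1-positive cells (2.44, 2.03 to 2.94), Lef1 at 298 and 144 CPM (2.06, 1.75 to 2.44), and Cd27 at 467 and 227 CPM (2.06, 1.80 to 2.35). The calls of Lef1 and Cd27 were lost under TMM scaling, under the median of ratios and with the cells of both markers added to either class. Lef1 also lost its call with 5 or more Gzma UMIs asked for, and with cells of other types left out, Ccr9 and Cpa3 off those lists. Tcf7 lost its call with the cells of both markers added to the Cd163l1-positive class. The lymph node homing receptor gene Ccr7 missed the limit with 139 and 71.1 CPM (1.95, 1.54 to 2.5). The egress receptor gene S1pr1 and its regulator Klf2 were nearly even, with ratios of 1.20 (0.996 to 1.45) and 1.11 (0.992 to 1.25). The GIMAP family of lymphocyte GTPases had 0 of 6 measured members called, against 12.3% of all genes. Its median log2 ratio was 0.63 and its highest ratio, 1.99, was that of Gimap9.

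Of T cell receptor subunit and signalling genes, 1 of 15 measured members was higher and 0 were lower, with a median log2 ratio of 0.01. These counts are near the shares of all genes, 5.73% higher and 6.55% lower. The higher one was the kinase gene Lck, at 407 CPM in Gzma-positive and 195 CPM in Cd163l1-positive cells (2.09, 1.81 to 2.42). That call was lost under TMM scaling, under the median of ratios and with the cells of both markers added to either class. Cd3d was even at 1070 and 1064 CPM, whereas Cd3g stood at 1405 and 2609 CPM without reaching the limit. Among other ranked genes, the SLAM adaptor gene Sh2d1a was at 255 and 86.3 CPM (2.95, 2.40 to 3.65), the MAP kinase phosphatase gene Dusp10 at 341 and 108 CPM (3.17, 2.64 to 3.83), the phosphodiesterase gene Pde10a at 162 and 44.3 CPM (3.66, 2.76 to 4.94), the adaptor gene Fyb at 293 and 109 CPM (2.68, 2.23 to 3.25) and Slain1 at 238 and 79.5 CPM (3.00, 2.42 to 3.74). Of 10 measured genes on the list of PLZF-type (innate-like) T cells, 2 were higher, Sh2d1a and Slamf6, and 2 lower, Icos and Il2ra, with a median log2 ratio of -0.01. Zbtb16, which encodes PLZF itself, was at 13.9 CPM in Gzma-positive and 27.5 CPM in Cd163l1-positive cells. Its ratio of 0.506 (0.295 to 0.857) was just short of the limit, so it was not called. It gained a call under several other settings, among them TMM scaling, the median of ratios, at least 2 UMIs of the marker and dividing cells left out.

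Genes of DNA replication and mitosis were higher together in Gzma-positive cells: 19 of 23 cell cycle genes were called higher and 0 lower (median log2 ratio 1.24). The ribonucleotide reductase gene Rrm2 stood at 364 CPM in Gzma-positive and 120 CPM in Cd163l1-positive cells (3.03, 2.55 to 3.63), the replication factor gene 2810417H13Rik at 946 and 354 CPM (2.68, 2.41 to 2.97) and the linker histone gene Hist1h1b at 120 and 29.8 CPM (4.01, 2.85 to 5.79). The core histone gene Hist1h2ap (503 and 135 CPM; 3.72, 3.16 to 4.39) and the chromatin protein gene Hmgn2 (1253 and 434 CPM; 2.89, 2.63 to 3.17) were among the ranked genes; histone genes are near-identical copies, so their counts are uncertain between members. With cells of at least 2 UMIs over 8 cycling markers left out, 382 genes were called higher and 384 lower, of which 199 and 305 were among the genes called with all cells, and Cd24a, Dntt and Sox4 kept their calls. Of the named genes, Rrm2, Nusap1, 2810417H13Rik, Idi1, Fabp5, H2-D1, H2-K1 and Il2rb lost theirs at that setting. Lipid and sterol genes gave 3 higher and 1 lower of 9 measured (median log2 ratio 0.62): Idi1, Scd2 and Fabp5 were called higher with all cells, and the triglyceride synthesis gene Dgat1 was lower at 53.6 and 174 CPM.

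The IL-17 programme was the most displaced list, with 24 of 27 measured members lower, 1 higher and a median log2 ratio of -2.78. Its cytokine genes had most of their UMIs in Cd163l1-positive cells. Il22 stood at 14.4 CPM in Gzma-positive and 358 CPM in Cd163l1-positive cells, 24.8-fold lower (17 to 37.8). Il17a, at 3.61 and 85.6 CPM, was 23.7-fold lower (11.1 to 60.3), and Il17f, at 2.58 and 31.3 CPM, was 12.2-fold lower (4.81 to 39.4). These rest on 28, 7 and 5 UMIs in Gzma-positive cells against 469, 112 and 41 in Cd163l1-positive cells.

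Receptors that switch these cytokines on were lower as well. Il23r had 13.9 CPM in Gzma-positive and 165 CPM in Cd163l1-positive cells (11.9-fold lower, 7.93 to 18.4), Il1r1 6.19 and 64.2 CPM (10.4-fold, 5.64 to 20.9) and Il7r, which transmits the survival cytokine IL-7, 135 and 557 CPM (4.12-fold, 3.58 to 4.77). Over the cytokine receptor list 8 of 15 measured members were lower and 0 higher, with a median log2 ratio of -1.01, including Il2ra, Il2rb, Il18r1 and Il17re. Ifngr1 was even at 1021 and 980 CPM, and Il21r stood on the other side at 314 and 170 CPM without a call. The factor gene Maf was 4.04-fold lower (3.06 to 5.40) and the kinase gene Blk 4.51-fold lower (3.58 to 5.71). Sox13, a factor gene of γδ T17 development, was scarce in both classes, with 20 and 6 UMIs, and was not called.

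Several surface and effector genes of IL-17-type T cells were among the ranked genes. Aqp3, a water and glycerol channel gene, had 9.28 CPM in Gzma-positive and 141 CPM in Cd163l1-positive cells (15.2-fold lower, 9.32 to 26.1). Serpinb1a, an inhibitor of neutrophil proteases, stood at 63.4 and 594 CPM (9.38-fold, 7.74 to 11.4) and Actn2 at 60.8 and 497 CPM (8.18-fold, 6.71 to 10.0). The membrane protein genes Tmem176a and Tmem176b, neighbours on chromosome 6, were 8.03-fold (6.64 to 9.78) and 8.02-fold (6.53 to 9.93) lower. The leukotriene B4 receptor gene Ltb4r1 and the oxysterol receptor gene Gpr183 were 8.72-fold (5.68 to 13.9) and 7.51-fold (5.45 to 10.5) lower. Cryba4 and Pxdc1, which are on no list, were 9.73-fold (6.25 to 15.8) and 9.0-fold (6.5 to 12.7) lower.

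The exception within the IL-17 list was 5830411N06Rik, a scavenger receptor gene of the same family as Cd163l1 and beside it on chromosome 7. It had 43.8 CPM in Gzma-positive against 11.5 CPM in Cd163l1-positive cells, a ratio of 3.82 (2.19 to 7.13), from 85 and 15 UMIs. Cells with neither transcript had 41.0 CPM, close to the Gzma-positive cells. Ramp1 and Lmo4 were the other 2 members of the list that were not called lower.

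Genes of tissue-settled effector T cells gave 15 of 20 members lower and 0 higher (median log2 ratio -1.51). S100a6, which encodes a calcium-binding protein and was among the most abundant of these transcripts, stood at 321 CPM in Gzma-positive and 2453 CPM in Cd163l1-positive cells, 7.65-fold lower (7.02 to 8.35). S100a4 followed at 83.5 and 598 CPM (7.16-fold, 6.04 to 8.54). The large scaffold gene Ahnak was 5.66-fold (4.19 to 7.76) and the transcription factor gene Bhlhe40 7.98-fold (5.22 to 12.6) lower. Ly6a, the gene of Sca-1, was 9.83-fold lower (8.32 to 11.7) at 82.5 and 811 CPM; counting can mix it with other Ly6 genes, and it sits on the interferon list. There, 1 of 17 measured members was higher (Ifit1) and 1 lower (Ly6a), near the shares of all genes, 5.73% and 6.55%. The median log2 ratio was 0.01, with Isg15 at 176 CPM in both classes.

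Chemokine receptor genes, which guide T cells to tissues, were called in both directions. Of 7 measured members 2 were higher and 3 lower, with a median log2 ratio of -0.08. Ccr9, the receptor for the thymic and gut chemokine CCL25, had 222 CPM in Gzma-positive and 77.2 CPM in Cd163l1-positive cells (2.87, 2.31 to 3.60), and Cx3cr1 had 22.2 and 8.40 CPM (2.64, 1.34 to 5.67). Cxcr6, a receptor of tissue-resident T cells, stood at 123 and 904 CPM (7.34-fold lower, 6.38 to 8.47), Ccr2, a receptor for inflamed tissue, at 29.9 and 314 CPM (10.5-fold lower, 7.96 to 14.1), and Ccr6 at 3.61 and 28.3 CPM (7.83-fold lower, 3.45 to 20.8). Ccr4 was even at 21.7 and 22.9 CPM.

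Activation genes were lower where they differed. Immediate early genes, transcribed within minutes of stimulation or handling, gave 6 of 21 lower and 0 higher (median log2 ratio -0.70). Junb stood at 664 CPM in Gzma-positive and 1815 CPM in Cd163l1-positive cells (2.73-fold lower, 2.55 to 2.93) and Fosb at 10.3 and 71.1 CPM (6.89-fold lower, 4.22 to 11.8), whereas the receptor-signal gene Nr4a1 was at 50.5 and 41.3 CPM and was not called. NF-κB target genes gave 7 of 14 lower and 0 higher (median log2 ratio -1.06), among them the inhibitor gene Nfkbia at 211 and 485 CPM (2.3-fold, 2.03 to 2.61) and the cytokine genes Ltb (3.54-fold, 3.16 to 3.96) and Tnf (11.1-fold, 3.92 to 43.4, from 4 and 30 UMIs). The activation and checkpoint list had 4 of 12 lower and 0 higher (median log2 ratio -0.36): Icos, Areg, Odc1 and Furin. Pdcd1, which encodes the checkpoint receptor PD-1, was alike at 277 and 301 CPM (ratio 0.921, 0.807 to 1.05).

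Counts on the lists of stress, survival, metabolism and antigen presentation were small, and stand beside 12.3% of all genes called in either direction and 6.55% called lower. Heat shock genes gave 3 of 12 lower and 0 higher (median log2 ratio -0.29), namely Hspa1a and Hspa1b, whose near-identical transcripts share reads, and the endoplasmic reticulum chaperone gene Hspa5 at 939 CPM in Gzma-positive and 2170 CPM in Cd163l1-positive cells (2.31-fold, 2.18 to 2.45). The Bcl2 family gave 4 of 11 lower and 0 higher (median log2 ratio -0.23): Bik and the paralogs Bcl2a1a, Bcl2a1b and Bcl2a1d, between which reads may be divided uncertainly. Bcl2 was at 66.5 and 48.1 CPM and the death gene Bcl2l11 at 376 and 196 CPM, neither of them called. Glycolysis and hypoxia genes gave 2 of 14 lower and 0 higher (median log2 ratio -0.02), Pfkp and Hilpda, a share near that of all genes called. The class I list gave 3 of 12 lower and 0 higher (median log2 ratio -0.19), H2-D1 and H2-K1 just past the limit at 2.01-fold (1.92 to 2.11) and 2.05-fold (1.89 to 2.22), and H2-Q7.

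**Figure D2:**
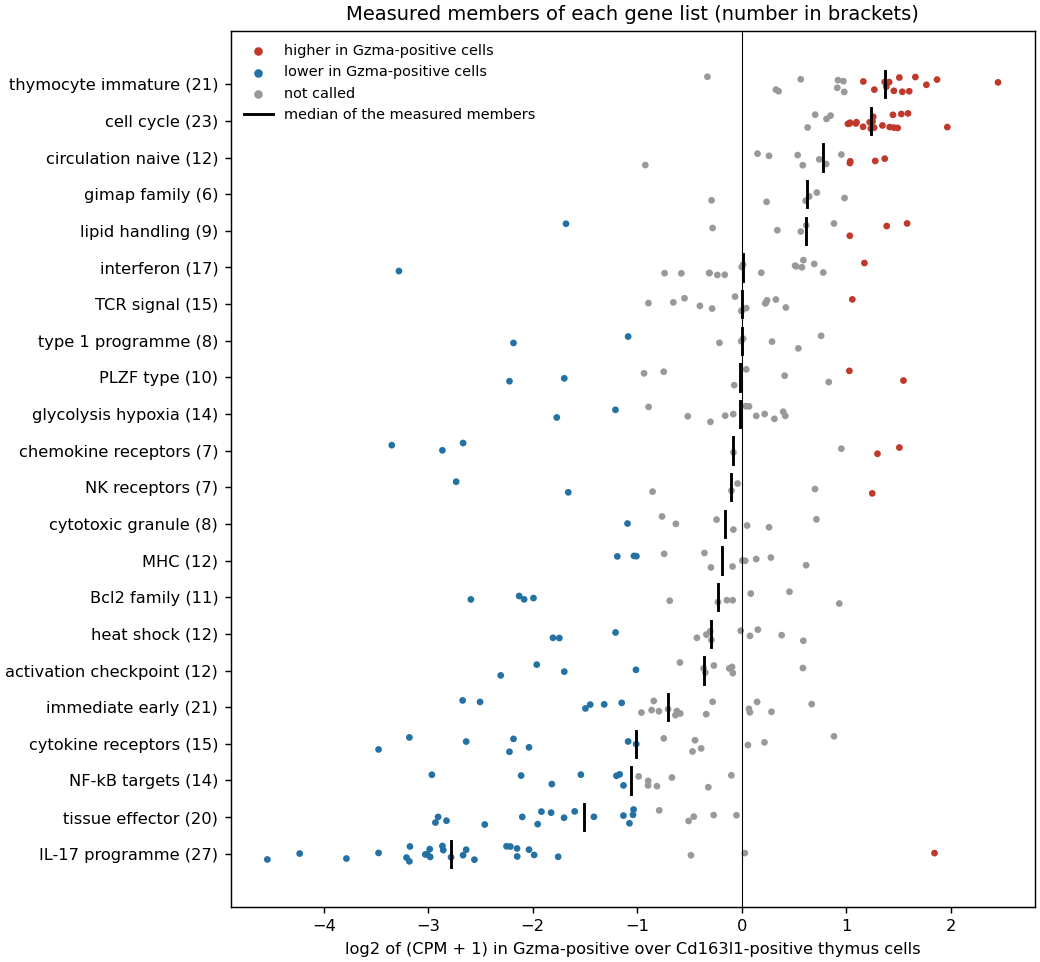
log2 of (CPM + 1) in Gzma-positive over Cd163l1-positive thymus cells for the measured members of the 22 gene lists, 1 point per gene, black bars at list medians, lists ordered by median. The IL-17 programme lies lowest with a median of -2.78 and 24 of 27 members called lower, and the immature thymocyte list highest with a median of 1.37 and 13 of 21 members called higher.

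Most cytotoxic granule and natural killer genes were not called in thymus or were too low to measure. Of 8 measured granule genes 0 were higher and 1 lower, with a median log2 ratio of -0.16, against 5.73% and 6.55% of all genes. Gzmb, the gene of granzyme B, stood at 38.7 CPM in Gzma-positive and 60.4 CPM in Cd163l1-positive cells (ratio 0.641, 0.461 to 0.890), Nkg7, a granule membrane protein gene, at 372 and 226 CPM (1.65, 1.44 to 1.89) and Ctsw at 121 and 101 CPM (1.20, 0.966 to 1.5). Cst7, which encodes a granule protease inhibitor, was the lower one at 33.5 and 72.6 CPM. Nkg7 gained a call with at least 2 UMIs of the marker, in cells of 1500 to 3000 UMIs and with thinning before the classes were set. It also gained one with dividing cells or clusters 4 and 7 left out. A further 10 members of this list did not reach 20 CPM in either class.

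Of 7 measured killer receptor genes 1 was higher and 2 were lower (median log2 ratio -0.10), with 20 more under 20 CPM. Of all genes, 5.73% were higher and 6.55% lower, and with so few members such counts say little about the list. Klrk1, the gene of NKG2D, had 34.5 CPM in Gzma-positive and 235 CPM in Cd163l1-positive cells (6.81-fold lower, 5.22 to 9.01), Cd226 was 3.33-fold lower (2.03 to 5.64) and Klrd1, the CD94 chain, was even at 33.5 and 35.9 CPM. Klra1 was called higher on 45 and 12 UMIs, but cells with neither transcript had 44.5 CPM. Among Gzma-positive cells it stood at 47.9, 7.93 and 1.67 CPM with 1, 2 to 4 and 5 or more Gzma UMIs. The type 1 list, to be read beside the same shares, gave 0 higher and 2 lower of 8 (median log2 ratio 0.01). The lower ones were Il18r1 at 4.59-fold (3.79 to 5.60) and Il2rb at 2.14-fold (1.74 to 2.64). Tbx21 and Ifng, the factor and cytokine that define type 1 cells, were scarce in both classes, with 5 and 13 UMIs in Gzma-positive and 1 and 4 UMIs in Cd163l1-positive cells.

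Cells with neither transcript were set beside both classes, but they are no neutral baseline. They were the shallowest class, with 1871.5 median UMIs. In the clusters described below, cluster 1 held 62.4% of them and 65.7% of Gzma-positive cells. Cluster 5 held 7.76% of them and 75.2% of Cd163l1-positive cells. The level in cells with neither transcript lay between the classes for 28 of the 34 named genes called higher and 54 of the 59 called lower. S100a6 stood at 321 CPM in Gzma-positive, 2453 CPM in Cd163l1-positive and 510 CPM in neither-type cells, and Il23r at 13.9, 165 and 17.8 CPM in the same order. For both genes, cells without either transcript lay near the Gzma-positive cells. Hes1 stood at 215, 71.8 and 99.3 CPM and Dntt at 113, 19.9 and 38.3 CPM, so here the cells without either transcript lay nearer to the Cd163l1-positive ones. Nkg7 at 372, 226 and 506 CPM, Klrd1 at 33.5, 35.9 and 86.8 CPM, Ccl5 at 232, 159 and 405 CPM and Xcl1 at 14.9, 6.88 and 53.0 CPM were highest where neither Gzma nor Cd163l1 was captured.

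Gzma transcripts were unevenly spread over cells. Of all thymus cells with a Gzma UMI, 480 (51.3%) had exactly 1, and the 237 cells with 5 or more held 77.1% of the Gzma UMIs, up to 136 in a cell. Over cells with 0, 1, 2 to 4 and 5 or more Gzma UMIs, all without Cd163l1, Cd24a stood at 222, 340, 406 and 581 CPM, Dntt at 38.3, 59.9, 121 and 182 CPM, and Hes1 at 99.3, 108, 268 and 320 CPM. In the same order S100a6 stood at 510, 428, 279 and 207 CPM, Cxcr6 at 199, 178, 101 and 65.0 CPM and Nkg7 at 506, 456, 365 and 262 CPM. Killer cell genes differed among themselves: Klrd1 stood at 86.8, 49.1, 17.8 and 25.0 CPM, Xcl1 at 53.0, 29.9, 5.95 and 1.67 CPM, Ccl5 at 405, 256, 117 and 295 CPM and Gzmb at 50.3, 44.3, 7.93 and 56.6 CPM. The first 3 were highest in cells without Gzma, and Gzmb was about as high in the Gzma-richest cells as in those without. That Gzmb level rests on 34 UMIs over 171 cells, against 4 UMIs in cells with 2 to 4 Gzma UMIs. Cells with Cd163l1 and 5 or more Gzma UMIs held 1 Gzmb UMI.

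Cd163l1 was captured more evenly, with 11 UMIs as the highest count in a cell. Over cells with 0, 1, 2 and 3 or more Cd163l1 UMIs, all without Gzma, S100a6 stood at 510, 1671, 2652 and 3184 CPM, Il23r at 17.8, 86.6, 189 and 236 CPM and Cd24a at 222, 175, 136 and 67.1 CPM. Nkg7 stood at 506, 382, 161 and 95.6 CPM.

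**Figure D3:**
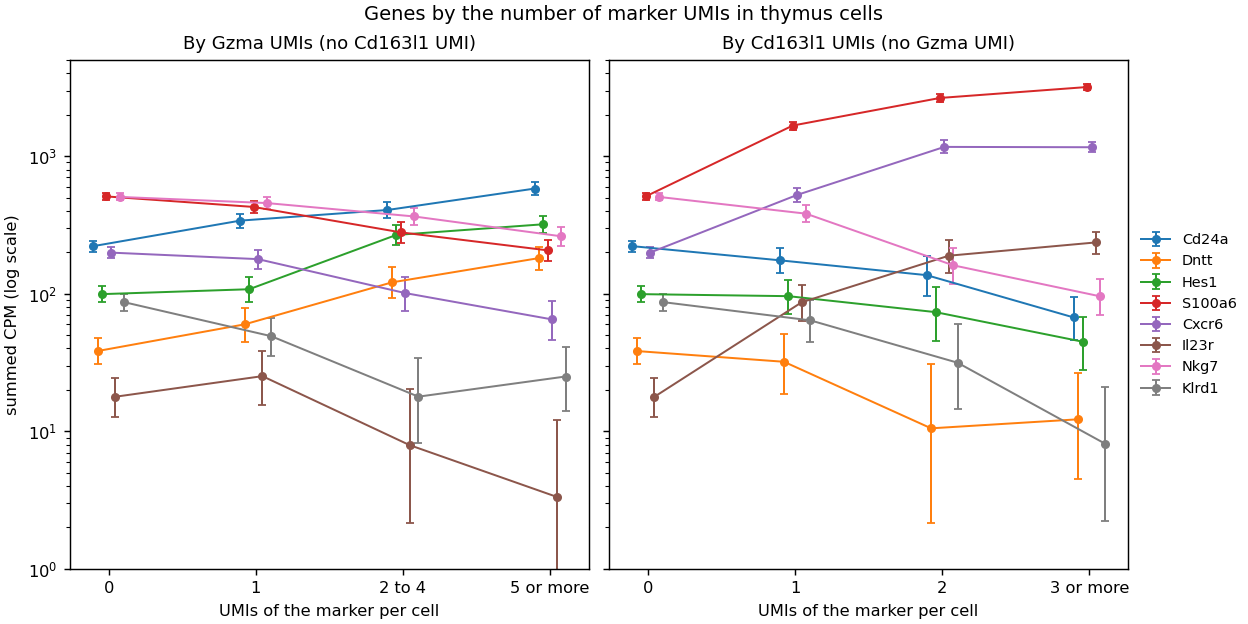
Summed CPM (log scale) of 8 genes by the number of marker UMIs per thymus cell: Gzma UMIs in cells without Cd163l1 on the left, Cd163l1 UMIs in cells without Gzma on the right, with exact Poisson 95% intervals. Cd24a goes up to 581 CPM with Gzma and down to 67.1 CPM with Cd163l1, S100a6 does the opposite, and Nkg7 is highest at 0 UMIs on both sides.

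Cells with both transcripts, left out of both classes, differed with their Gzma count. With 1 Gzma UMI their S100a6 level was 1816 CPM and their Cd24a level 128 CPM. With 5 or more, S100a6 was at 199 CPM, Cd24a at 611 CPM, Hes1 at 376 CPM and Il23r at 6.43 CPM. Depth differed too, with a median of 2320.5 UMIs per cell at 1 Gzma UMI and 4264 at 5 or more. A Gzma UMI was about as frequent with as without Cd163l1: 36% of Cd163l1-positive cells (32.8 to 39.3%, exact binomial) and 37.8% of Cd163l1-negative cells (35.4 to 40.2%) had a Gzma UMI. That share went with depth, from 20.2% and 22% in cells of at most 1806 UMIs to 52.1% and 57.0% in cells of at least 2626 UMIs. With at least 2 Gzma UMIs the shares were 14.2% of Cd163l1-positive and 20.2% of Cd163l1-negative cells. By depth these were 2.75% (1.02 to 5.89%) and 9.31% (7.15 to 11.9%) in cells of at most 1806 UMIs, 7.10% (4.65 to 10.3%) and 18.1% (14.8 to 21.9%) in cells of 1807 to 2623 UMIs, and 30.2% and 34.8% in deeper cells. With at least 5 they were 7.49% and 10.5% over all depths.

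When the cells with both transcripts were counted as Cd163l1-positive, 69 genes were called higher and 204 lower, and Dntt, Hes1, Sox4 and Plac8 lost their calls. Counted as Gzma-positive, they left 250 higher and 268 lower. When at least 2 UMIs of the marker were asked for, 654 were called higher and 561 lower, including 290 and 349 of the genes called at 1 UMI.

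Clusters of the thymus cells, made without Gzma and Cd163l1, showed where the classes lay; they were built from the genes compared here, so they describe the classes and add no support. Cluster 1, 1252 cells led by Cpa3, Ccr9, Ccr7, Plac8 and Sox4, held 65.7% of Gzma-positive cells (61.8 to 69.4%) and 15.4% of Cd163l1-positive cells (12.5 to 18.7%). Cluster 5, 649 cells led by Il23r, Aqp3 and Serpinb1a, held 3.07% and 75.2%. Cluster 4, led by genes of mitosis, held 14.4% and 4.61%, and cluster 7, 75 cells led by Ly6d, Dntt, Cd8a and Cd8b1, held 7.28% and 0.355%. Clusters 3 (led by Il4 and Zbtb16) and 6 (led by Klre1, Ccl5 and Klrd1) held 5.83% and 3.72% of Gzma-positive cells and 2.3% and 1.95% of Cd163l1-positive cells. Cluster 2, 9 cells led by H2-Aa and Ms4a1, held 0 Gzma-positive cells and 1 Cd163l1-positive cell. All clusters are given by number and leading genes, and none was given a cell type name.

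**Figure D4:**
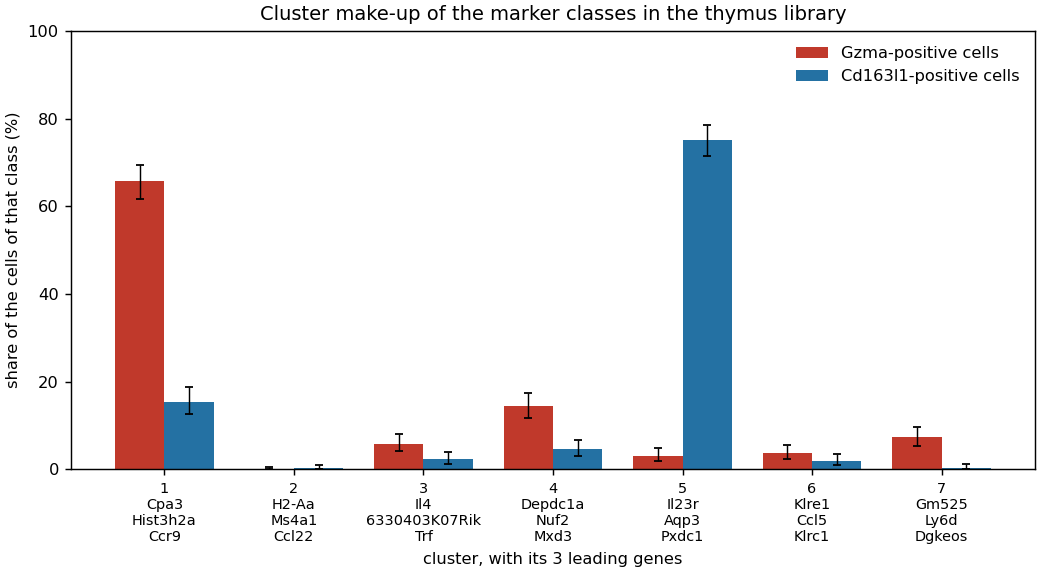
Share of the 618 Gzma-positive (red) and 564 Cd163l1-positive (blue) thymus cells in each of 7 clusters, in percent with exact binomial 95% intervals, and the 3 leading genes of each cluster. Cluster 1 holds 65.7% of the Gzma-positive cells and cluster 5 holds 75.2% of the Cd163l1-positive cells.

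Low counts of each marker appeared in nearly every cluster. A Gzma UMI was found in 22.5% of cluster 5, 25.0% of cluster 3 and 20.5% of cluster 6, at 118, 112 and 213 CPM of Gzma and 2056, 2502.5 and 1685 median UMIs per cell, against 42.3% of cluster 1 and 84.0% of cluster 7, at 1112 and 1110 CPM and 1993.5 and 4710 median UMIs. Cluster 4, led by genes of mitosis, had a Gzma UMI in 54.5% of its cells, at 608 CPM. Its median of 5087 UMIs per cell was the highest of the clusters. Cells with 5 or more Gzma UMIs were 13.7% of cluster 1 and 0.154% of cluster 5. Cd163l1 was found in 84.9% of cluster 5 and in 11 to 27.5% of the other clusters, at 1056 CPM against 54.1 to 92.0 CPM. Free RNA and doublets can both give such counts, and their part was not tested. Some cells with 1 UMI of a marker may therefore not express it, and no fold above is corrected for this. Within cluster 1 alone, an alternative chosen after seeing the data that left 406 Gzma-positive and 87 Cd163l1-positive cells, 67 genes were called higher and 144 lower, of which 19 and 15 were among those called over all cells.

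Markers of other cell types moved with the classes. The 8 markers of αβ T cells and thymocytes summed to 206 CPM (186 to 227, exact Poisson) in Gzma-positive cells, 52.7 CPM (41.0 to 66.7) in Cd163l1-positive cells and 136 CPM in neither-type cells. Cd8a stood at 33.5 and 5.35 CPM in Gzma-positive and Cd163l1-positive cells, Cd8b1 at 68.0 and 17.6 CPM and Themis at 49.5 and 9.17 CPM, whereas Cd4 was at 8.76 and 9.93 CPM and Rag1 had 9 and 1 UMIs. Of Gzma-positive cells 6.96% had at least 3 UMIs over these markers, against 0.177% of Cd163l1-positive cells. The 13 γδ T17 markers other than Cd163l1 summed to 448 CPM and 2343 CPM, and 7 general T cell markers to 5009 and 6580 CPM. The mast cell list summed to 190 and 71.8 CPM, nearly all of it Cpa3, with 6 of its 8 markers at 0 in both classes. Both plasma cell and ILC2 markers had larger sums in Cd163l1-positive cells: plasma cell markers summed to 7.22 CPM in Gzma-positive and 70.3 CPM in Cd163l1-positive cells, mainly Sdc1 at 4.64 and 58.8 CPM, and ILC2 markers to 20.1 and 87.1 CPM, mainly Areg at 14.9 and 61.1 CPM. Dendritic cell markers summed to 280 and 215 CPM, of which Ccr9 made up 222 and 77.2 CPM. On that list Cd74 (34.5 and 87.9 CPM) and H2-Ab1 (10.8 and 28.3 CPM) were called lower, whereas Xcr1 had 5 and 2 UMIs. NK and ILC1 markers summed to 48.5 and 32.9 CPM, B cell markers to 14.4 and 26.7 CPM and thymic stroma markers to 56.2 and 48.9 CPM. Macrophage, neutrophil and erythroid markers summed to under 4 CPM in each class. The 8 cycling markers summed to 1194 and 493 CPM. The part of cells carrying these markers in the differences above was not tested beyond leaving such cells out. With cells of at least 3 UMIs on any list of another type left out, Ccr9 and Cpa3 taken off those lists after seeing the data, 313 genes were called higher and 347 lower, 273 and 329 of them among the genes called over all cells.

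The pooled library, which the choice of cells did not use, held 59 Gzma-positive and 1325 Cd163l1-positive cells, with 111104 and 2035170 UMIs. Of 6138 measured genes 718 were called higher in its Gzma-positive cells (11.7%) and 415 lower (6.76%), 18.5% in all. After TMM scaling, which moved the median log2 ratio of all genes to -0.20 from 0.16, 433 were called higher and 710 lower. Of the 314 genes higher in thymus, 245 were measured in the pool, 162 were called higher there (51.6% of the thymus list and 22.6% of the pool's) and 1 was lower. Of the 359 lower in thymus, 328 were measured, 200 were lower (55.7% and 48.2%) and 1 was higher. The pool mixes tissues, and its Cd163l1-positive cells may differ from its Gzma-positive cells in tissue and strain as well, which cannot be told apart.

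Of the named genes, 29 of the 34 higher and 55 of the 59 lower ones were called in the same direction in the pool, and 0 in the opposite one. All 21 measured immature thymocyte genes were higher there (median log2 ratio 3.27), and 25 of 29 IL-17 genes lower with 1 higher (median -3.09). Hes1 stood at 837 CPM in Gzma-positive and 5.90 CPM in Cd163l1-positive pooled cells (ratio 142, 77.5 to 285), Cd24a at 315 and 10.3 CPM (30.5, 17.3 to 55.2) and Sox4 at 648 and 28.0 CPM (23.1, 16.1 to 33.3). On the lower side S100a6 stood at 180 and 4001 CPM (22.2-fold lower) and Aqp3 at 27.0 and 199 CPM (7.39-fold lower, from 3 and 406 UMIs). Il22 had 0 UMIs in Gzma-positive pooled cells against 351 CPM, and 5830411N06Rik had 108 and 6.39 CPM (16.9, 7.05 to 40.2). The killer receptor list gave 6 of 14 measured members higher and 2 lower in the pool (median log2 ratio 1.02). The granule list gave 1 of 8 higher and 2 lower. Of all genes measured in the pool, 11.7% were higher and 6.76% lower. In thymus 1 of 7 killer receptor genes was higher and 2 lower (-0.10), but the medians rest on different members. In the pool's Gzma-positive cells 3 UMIs made 27.0 CPM, so a gene high there could be measured on few UMIs. Nkg7 was called higher in the pool at 594 and 131 CPM (4.53, 3.40 to 5.95). In thymus Nkg7 was not called at the main setting but was called under some other settings. That the effects differ was not tested. The αβ T cell and thymocyte markers summed to 315 and 23.1 CPM in the pool.

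**Figure D5:**
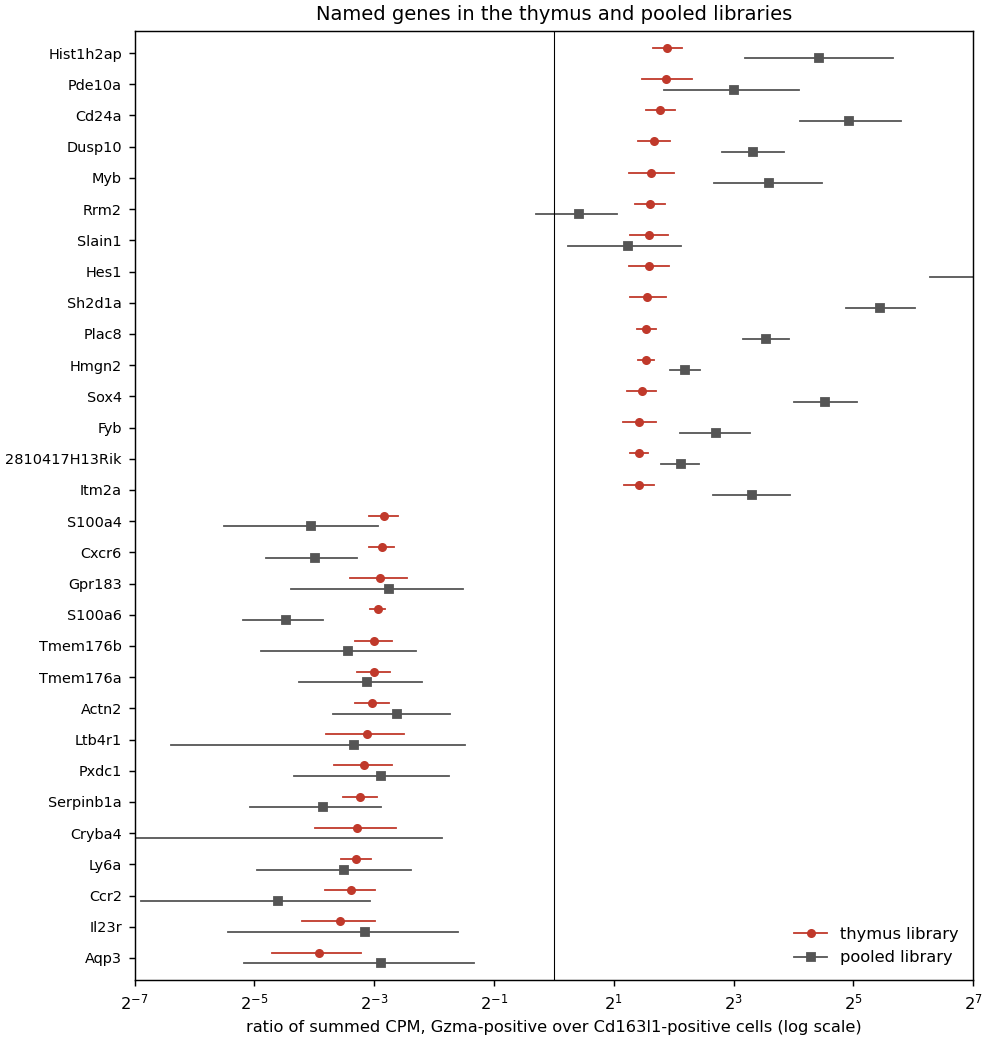
Ratio of summed CPM (log scale), Gzma-positive over Cd163l1-positive cells, for the 30 ranked genes in the thymus library (red circles) and the pooled library (grey squares), with exact 95% intervals for counting error; the pooled Hes1 ratio of 142 lies beyond the end of the axis, and an interval without a square has 0 UMIs in the pooled Gzma-positive cells. Rrm2 is the ranked gene that was not called in the pool, with a ratio of 1.34 (0.814 to 2.08).

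Gzma-positive cells were rare in the libraries of single peripheral tissues: 7 of 1458 lymph node cells (0.480%, 0.193 to 0.987%), 0 of 687 skin Vγ6+ cells, which allows a share of up to 0.437% (3 counts; exact upper bound 0.536%), and 29 of 1178 skin Vγ4+ cells (2.46%), against 24.6% (22.9 to 26.3%) of thymus cells. A further 22 lymph node, 2 skin Vγ6+ and 6 skin Vγ4+ cells carried Gzma together with Cd163l1, against 317 thymus cells. In the skin Vγ4+ library 6.17% of 6805 measured genes were called higher in Gzma-positive cells and 2.65% lower (8.82% in all); of the genes named for thymus, 20 of 34 higher and 35 of 59 lower ones were called the same way there and 0 the opposite way. Thinned to 1000 UMIs per cell, with 75 thymus cells left out as shallower, Gzma-positive cells were 19.5% of thymus cells. Cd163l1-positive cells made up 82.0% of lymph node, 55.7% of skin Vγ6+, 17.1% of skin Vγ4+ and 22.4% of thymus cells. No library shared more than 9 barcodes with another, and no cell was Gzma-positive under the same barcode in a pair of libraries.

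In the authors' deposited table of cluster means, scaled so that each cluster sums to 10000, Gzma stood at 24.8 in thymus cluster Thy_5, 8.22 in Thy_1, 1.99 in Thy_4, 0.983 in Thy_2 and 0.681 in Thy_3. Cd163l1 stood at 11 in Thy_2 and at 0.727 or less in the other thymus clusters of the authors' deposited table. In that deposited table of the authors, Cd24a was highest in Thy_5 with 7.73 and S100a6 highest among thymus clusters in Thy_2 with 34.0, while Nkg7 peaked in Thy_4 with 15.7. These are the authors' own values, and how their cells map to the classes above was not analysed here.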

How the data were processed

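The 5 sorted γδ T cell libraries were prepared with the Chromium Single Cell 3' v2 kit, per the labels' protocols. Cell Ranger 2.0, Seurat 2.3 and build mm10 are named in the submitters' processing notes, without their roles. The deposited matrices hold raw UMI counts of 27998 genes per barcode, not normalized. The authors' deposited cluster table holds mean expression, another unit, summing to 10000 per cluster. The authors' marker table was not used here, and receptor segment genes were not analysed here. Some list members are not reported here by name.

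Cells were kept if they held at least 200 genes and at most 10% mitochondrial UMIs, and UMIs were summed per class and divided by the class total to give CPM. Ratios have exact conditional binomial, CPM exact Poisson and shares exact Clopper-Pearson 95% intervals. All cover counting error only. With 1 library per group no test, SD or p-value is given. Gzma and Cd163l1 are left out of all gene counts. The log2 ratios add 1 CPM to each class. A count of 0 allows up to 3 counts.

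The cells, gene lists and named genes were chosen with earlier results of these data known. Called genes with at least 100 CPM, and a UMI in at least 20% of cells, in the class with more were ranked by the interval bound nearest 1, and the 15 first on each side were named. Mitochondrial genes, genes of ribosomal proteins and non-T cell markers were not ranked. A set of T cell genes and up to 4 called members of each of 22 lists were added. Other list members were named after their values had been seen.

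Clusters came from scanpy 1.11.5 with igraph 0.11.9 (cells scaled to 10000, log, 2000 variable genes, 30 components, 15 neighbours, Leiden resolution 0.5). Scrublet marked 6 of 2517 thymus cells (0.238%) and is treated as not having worked, so no doublets were removed. TMM factors came from edgeR 4.0.16, used for scaling alone. Alternatives covered scaling, thinning, depth, the marker threshold, cell filters, other cell types, the CPM minimum and the cells with both markers.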

Additional observations from a re-analysis of the deposited data

Results flagged for a closer look

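Ifitm2 and Naa30 were called in opposite directions in the 2 libraries, and the difference was not tested. Ifitm2 had a ratio of 4.35 (2.14 to 9.98) in thymus, from 58 UMIs in Gzma-positive and 9 in Cd163l1-positive cells, against 0 and 73 UMIs in the pool. Naa30 had a ratio of 0.439 (0.257 to 0.737) in thymus and 2.29 (1.01 to 4.59) in the pool, from 9 UMIs in Gzma-positive and 72 in Cd163l1-positive cells there.

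The skin Vγ4+ library, whose gene levels are not given above, held 29 Gzma-positive cells and 202 Cd163l1-positive cells, and its Gzma-positive cells held transcripts of early T cell genes above the level of its Cd163l1-positive cells. Sox4 stood at 791 CPM in Gzma-positive and 17.2 CPM in Cd163l1-positive skin cells (ratio 46.0, 19.3 to 133). Ccr9 stood at 386 CPM against 0 UMIs, at least 44.8-fold higher when the Cd163l1-positive cells are set to 3 counts, and Lef1 at 223 CPM against 0 UMIs, at least 25.9-fold higher. With under 50 Gzma-positive cells these values describe few cells.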

How the results depend on the processing

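No paired analysis was possible because each group is 1 library, and no replicate could be left out. In thymus, against 314 genes higher and 359 lower, the counts moved by over 1.5 times in at least one direction with at least 2 UMIs of the marker (654 higher, 561 lower), no CPM minimum (604 and 651), at least 100 CPM (67 and 114), the cells with both markers added to the Cd163l1-positive cells (69 and 204) and cluster 1 only (67 and 144). TMM gave 255 and 412 and the median of ratios 249 and 415. Under the depth settings the totals moved less, but many genes changed. Thinning after the classes were set gave 384 and 369, of which 200 and 261 were among the genes called over all cells. Thinning before gave 415 and 391, with 178 and 257 shared. Cells of 1500 to 3000 UMIs gave 439 and 378, with 187 and 278 shared. In the pool, against 718 higher and 415 lower, TMM gave 433 and 710, the median of ratios 456 and 663, the mean over cells, a rule without intervals, 1549 and 1296, thinning after the classes were set 467 and 179, thinning before 445 and 175, cells of 1500 to 3000 UMIs 476 and 217, leaving out dividing cells 263 lower, and at least 100 CPM 321 and 260. Apart from the filters and cell numbers these settings set themselves, the cause was not tested.

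Of 93 called named genes, 65 reached the CPM minimum under all 16 settings listed at the outset, and 38 of these kept their call under each; 20 more kept it wherever they were measured, 35 lost it at least once and 0 reversed. Adding the 4 settings chosen after seeing the data, 59 were measured under all 20 and 4 kept their call. With cluster 1 only, whose cells were grouped by these same genes, 70 were measured, of which 5 kept their call, 45 lost it and 20 reversed. Log2 ratios there were -0.43 for Hist1h1b, -0.51 for Rrm2, -0.35 for Nusap1, -0.057 for Fyb, -0.088 for 2810417H13Rik, -0.22 for Itm2a, -0.44 for Cd28, -0.062 for Lck, -0.63 for Slamf6, -0.11 for Fabp5 and -0.44 for Lef1, all higher over all cells. They were 0.75 for Odc1, 0.12 for Il2rb, 0.38 for Pfkp, 0.030 for Gadd45b, 0.70 for Blk, 0.22 for Tmem176b, 0.36 for Pxdc1, 0.17 for Serpinb1a and 0.086 for Ly6a, all lower over all cells. Rrm2 was at -0.085 with clusters 4 and 7 left out. Under TMM and under the median of ratios, Lck, Slamf6, Fabp5, Lef1 and Cd27 lost their calls. Calls were gained as well. Of the named genes not called at the main setting, Ccr7, Nkg7, Ccl5, Zbtb16, Il4, Xcl1 and Sox13 were called under some other settings. Depth limits transcripts at a few UMIs, such as Tbx21, Ifng and Rag1.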

Other observations

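In the skin Vγ4+ library, Cd24a stood at 588 CPM in its 29 Gzma-positive cells and 25.8 CPM in its 202 Cd163l1-positive cells (ratio 22.8, 10.5 to 54.7). Tcf7 stood at 304 and 43.0 CPM (7.07, 3.22 to 15.5). On the lower side S100a6 stood at 1603 and 4868 CPM (ratio 0.329, 0.259 to 0.413), Cxcr6 at 588 and 2040 CPM (0.288, 0.192 to 0.418) and Il17a at 223 and 625 CPM (0.357, 0.176 to 0.651). These cells were sorted for another receptor chain and from another tissue than the thymus cells.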
